A study of Mus musculus with 8 samples.

Results

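The BCL2 family genes *Bcl2*, *Bcl2l1*, *Mcl1*, *Bax*, *Bak1*, *Bcl2l11*, *Bid*, *Bad* and *Bmf*, together with *Xiap*, were followed in RNA-seq of sorted cells from subcutaneous Myc-CaP tumors. These 10 genes were taken by name from the 39089 genes of the deposited tables, and all 10 passed the filter on low counts. Myc-CaP is a mouse prostate cancer cell line driven by *Myc*. The cells carried either an empty CRISPR vector (WT) or the same vector with a guide that targets *Arid1a* (*Arid1a* KO), and both were drug-selected lentiviral pools grown in FVB hosts of 6 weeks of age. From day 16, host mice received for 2 weeks either the vehicle or JSH-23, a compound that blocks the entry of the NF-κB subunit p65 into the nucleus. The groups were thus WT vehicle, WT JSH-23, *Arid1a* KO vehicle and *Arid1a* KO JSH-23, each with 2 samples, and EpCAM-positive, CD45-negative cells were sorted for RNA.

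Proteins of the BCL2 family decide whether a stressed cell opens its outer mitochondrial membrane. BAX and BAK form the pores, BCL2, BCL-XL (the product of *Bcl2l1*) and MCL1 hold them in check, and the BH3-only proteins BIM (*Bcl2l11*), BID, BAD and BMF carry death signals by binding the guardians or by activating the pore formers. Once cytochrome c has left the mitochondria, caspases are activated, and XIAP binds and inhibits these proteases. NF-κB is known to raise the transcription of several survival genes, *Bcl2l1* and *Xiap* among them, which makes these genes of interest in a study that combines *Arid1a* loss with an inhibitor of p65.

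Total counts lay between 16401581 and 21972231 per sample, and 13921 genes were tested with edgeR's quasi-likelihood test over the 8 samples. A gene was called when its p-value, adjusted over all 13921 genes by the Benjamini-Hochberg method, was under 0.05. Levels are given as CPM, counts relative to the TMM-scaled size of the library, and differences as log2 fold changes with their standard error (SE). Samples of a group lay close together, at a biological coefficient of variation of 1.61% in common over genes. Nothing in the sources used here says which tumors made up a sample, so p-values measure only the spread between these samples, which may be technical. *Arid1a* was lower in every *Arid1a* KO sample but remained expressed, at between 1736 and 2186 counts against between 2555 and 2745 in WT, which gave a log2 fold change of -0.60 (adjusted p = 1.39e-23) with vehicle and -0.66 (adjusted p = 5.12e-25) with JSH-23. *Epcam*, the marker of the sort, had between 0 and 4 counts in every sample and *Ptprc*, which encodes CD45, between 0 and 10. *Krt8* (between 32.8 and 113 CPM) and *Krt19* (between 11.6 and 104 CPM), epithelial keratins named here after their values were seen, were expressed and higher in *Arid1a* KO, with log2 fold changes of 1.02 and 1.40 with vehicle and 1.60 and 2.68 with JSH-23. The 6 epithelial markers listed summed to between 88.8 and 102 CPM in WT vehicle, 45.4 and 46.99 CPM in WT JSH-23, 215 and 217 CPM in *Arid1a* KO vehicle and 179 and 187 CPM in *Arid1a* KO JSH-23. Of these 6, only 3 had more than 3 counts in every sample. Nearly all of the sum was *Krt8* and *Krt19*, while *Krt18*, *Cdh1* and *Cldn7* each stayed under 1 CPM in every sample. The part of these markers in the results was not tested. In bulk RNA, fewer cells of a type and less RNA per cell cannot be told apart.

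Of the 10 genes, the pore former *Bax* had the highest level per gene length, with a median of 149 TPM (a unit that divides counts by gene length) over the 8 samples. *Mcl1* followed with 77.0 TPM, *Bcl2l1* with 61.4 TPM and *Bak1* with 50.3 TPM. *Bcl2l11*, *Bad*, *Bmf* and *Bid* had medians between 19.8 and 24.9 TPM, *Xiap* had 10.7 TPM and *Bcl2* was lowest at 5.46 TPM. The sample ranges of these 4 BH3-only genes overlapped, so that their order was not separated beyond the spread between groups. *Mcl1* (between 60.02 and 91.5 TPM) and *Bcl2l1* (between 59.8 and 80.3 TPM) overlapped in the same way, as did *Bcl2l1* and *Bak1* (between 39.0 and 61.2 TPM). *Bax* (at least 122 TPM in each sample) and *Bcl2* (at most 6.47 TPM) stood clear of every other gene of the set. TPM depends on the gene length used, and the deposited tables gave 923 bp for *Bax* against 22194 bp for *Xiap*.

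**Figure D1:**
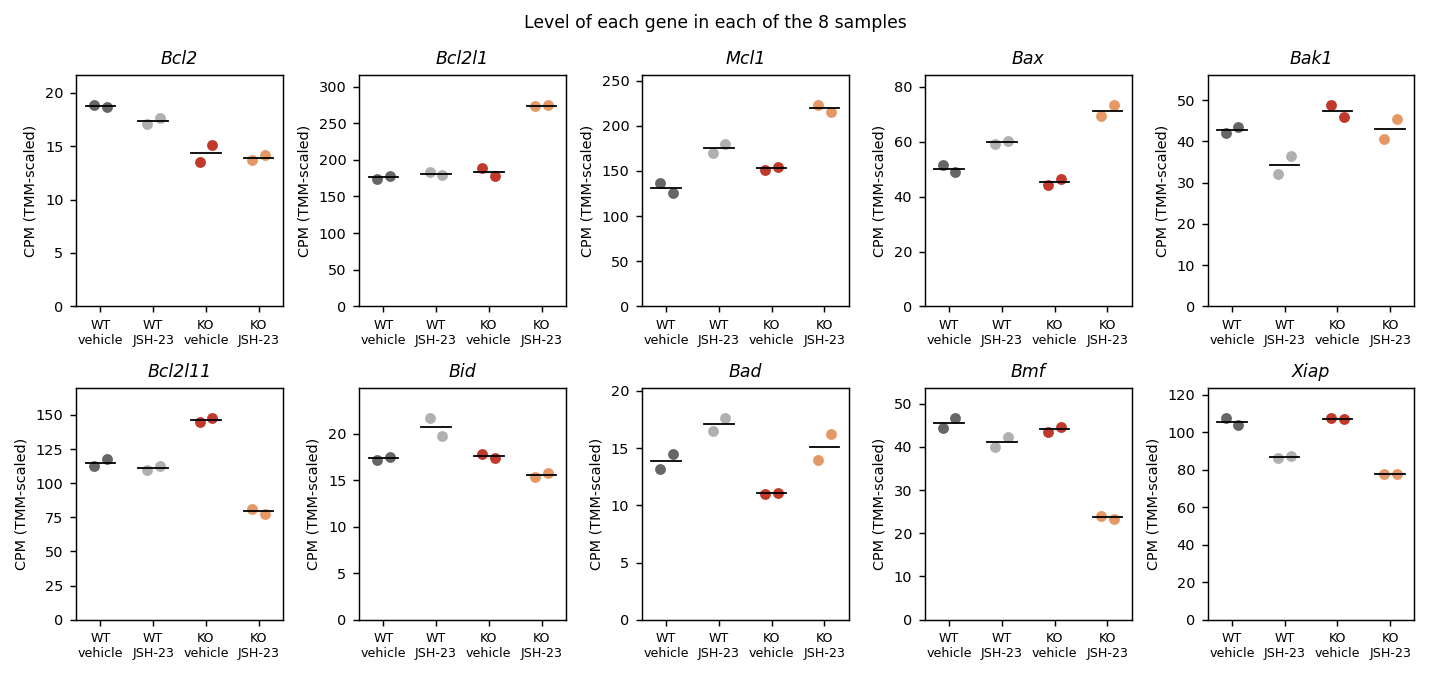
Level of each of the 10 genes in each of the 8 samples, in TMM-scaled CPM on a linear axis from 0; points are samples and the black line is the mean of the 2 samples of a group. *Bcl2l11* and *Bmf* are lowest and *Bcl2l1*, *Mcl1* and *Bax* highest in the *Arid1a* KO JSH-23 samples.

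Since the treatment was an NF-κB inhibitor and the line is driven by *Myc*, the promoters of the 10 genes were searched for the NF-κB consensus and the E-box CACGTG, and, as motifs of factors known to act on BH3-only genes and *Bax*, for the FOXO core TGTTTAC and the p53 half-site. RefSeq windows on GRCm38.p6, running from 250 bases before to 50 bases after a transcription start, were read on both strands. All 10 genes had a window, 18 windows in total, of which 14 held none of the 4 motifs. An NF-κB match was found in 4.51% of all 32851 windows, an E-box in 7.15%, a FOXO core in 3.65% and a p53 half-site in 8.36%. Among the 18 windows, an NF-κB match was held by 2 (*Bcl2l1* and *Bmf*), a p53 half-site by 2 (*Bmf* and *Bax*), a FOXO core by 1 (*Bcl2l11*) and an E-box by 1 (*Bax*). The stretches below are the 250 bases before the start in these 4 windows, 5′ to 3′ on the strand of the gene, and are shown because 3 of the 4 genes (*Bcl2l1*, *Bcl2l11* and *Bmf*) are those with the largest interaction values among the 10. Capitals mark the matches, which do not overlap each other: in *Bcl2l1* (chr2:152830718-152830967, minus strand) an NF-κB match that begins 242 bases before the start, in *Bcl2l11* (chr2:128125788-128126037, plus strand) the FOXO core on the opposite strand 227 bases before the start, in *Bmf* (chr2:118544588-118544837, minus strand) a p53 half-site 213 bases before the start, and in *Bax* (chr7:45466899-45467148, minus strand) a p53 half-site 201 bases and an E-box 9 bases before the start. The NF-κB match of *Bmf* begins at the first transcribed base, and a further E-box of *Bax* begins at transcribed base 36. Both lie outside the stretches shown. The windows of *Bcl2l1* and *Bmf* belong to starts inside the deposited gene spans. A match is a description of letters and not of a bound site.
Bcl2l1: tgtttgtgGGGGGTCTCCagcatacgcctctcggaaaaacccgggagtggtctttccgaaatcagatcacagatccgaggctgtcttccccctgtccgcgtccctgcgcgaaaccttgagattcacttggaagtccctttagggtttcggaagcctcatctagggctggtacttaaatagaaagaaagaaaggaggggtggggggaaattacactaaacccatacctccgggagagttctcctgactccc
Bcl2l11: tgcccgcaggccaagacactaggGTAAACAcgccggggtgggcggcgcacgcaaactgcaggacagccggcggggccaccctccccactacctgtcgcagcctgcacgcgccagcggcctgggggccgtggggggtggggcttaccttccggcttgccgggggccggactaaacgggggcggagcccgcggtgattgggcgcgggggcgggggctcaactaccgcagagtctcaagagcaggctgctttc
Bmf: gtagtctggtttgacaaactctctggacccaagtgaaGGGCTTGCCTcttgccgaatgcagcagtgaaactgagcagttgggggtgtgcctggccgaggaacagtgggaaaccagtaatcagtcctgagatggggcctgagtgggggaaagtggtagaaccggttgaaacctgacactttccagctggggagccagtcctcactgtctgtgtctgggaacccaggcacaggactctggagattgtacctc
Bax: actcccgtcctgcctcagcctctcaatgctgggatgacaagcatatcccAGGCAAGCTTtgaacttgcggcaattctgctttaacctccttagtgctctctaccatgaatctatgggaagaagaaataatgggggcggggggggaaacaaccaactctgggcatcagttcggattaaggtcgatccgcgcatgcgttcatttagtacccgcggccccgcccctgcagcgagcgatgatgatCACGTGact

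With vehicle, loss of *Arid1a* was accompanied by small differences. *Bcl2l11*, *Mcl1* and *Bak1* rose and *Bcl2*, *Bad* and *Bax* fell in *Arid1a* KO against WT tumors, 3 genes in each direction, beside a background of 25% of all tested genes higher and 25.5% lower. None of the 10 reached a 1.5-fold difference, which 12.6% of all genes did. With JSH-23, 4 genes were higher in *Arid1a* KO (*Bcl2l1*, *Mcl1*, *Bax* and *Bak1*) and 5 lower (*Bcl2*, *Bcl2l11*, *Bid*, *Bmf* and *Xiap*), where 23.2% and 23.8% of all genes were called. *Bcl2l1* and *Bmf* passed 1.5-fold, as did 8.71% of all genes. These 2 comparisons share samples with the comparisons of JSH-23 against vehicle, so that the 4 sets of values are not independent of each other. These counts moved with the scaling: scaled by library size alone, 4 were higher and 2 lower with vehicle, and on log2(TPM + 1), 1 was higher and 6 were lower with JSH-23, where *Mcl1*, *Bax* and *Bak1* no longer passed the test.

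In WT tumors, JSH-23 was accompanied by a rise of *Mcl1*, *Bax*, *Bid* and *Bad* and a fall of *Bak1* and *Xiap*, against backgrounds of 28.6% and 27.2%; none reached 1.5-fold, where 15.8% of all genes did. In *Arid1a* KO tumors, JSH-23 was accompanied by a rise of *Bcl2l1*, *Mcl1*, *Bax* and *Bad* and a fall of *Bcl2l11*, *Bmf* and *Xiap*, against backgrounds of 33.4% and 34.4%. *Bax* rose and *Bcl2l11* and *Bmf* fell by at least 1.5-fold in this comparison, as did 26% of all genes in either direction. Without scaling beyond library size the split was 4 higher and 5 lower, and on log2(TPM + 1) it was 3 and 6, *Bak1* and *Bid* being lower under both. The interaction, which tests whether *Arid1a* KO and WT responded unequally to JSH-23, was positive for *Bcl2l1* and *Bax* and negative for *Bcl2l11*, *Bid*, *Bmf* and *Xiap*, against backgrounds of 20.5% and 17.9%. It exceeded 1.5-fold for *Bcl2l11* and *Bmf*, and for 9.07% of all genes. These calls rest on the small spread between samples. In an alternative, the biological coefficient of variation was set to 0.1, with a likelihood ratio test in place of the quasi-likelihood test. The number of the 10 genes called was then 0 and 3 for *Arid1a* KO against WT with vehicle and with JSH-23, 1 and 7 for JSH-23 in WT and in *Arid1a* KO, and 2 for the interaction (*Bcl2l11* and *Bmf*). Of all genes, 20.6%, 13.6%, 26.1%, 43.2% and 5.37% were called in the same order.

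Markers of other cell types also moved with the treatment. The 12 leukocyte markers, 5 of which had at most 3 counts in every sample, summed to between 21.4 and 22.6 CPM in WT vehicle, 11.4 and 21.3 CPM in WT JSH-23, 20.9 and 23.9 CPM in *Arid1a* KO vehicle and 10.7 and 13.7 CPM in *Arid1a* KO JSH-23. The 7 fibroblast markers, 2 of which had at most 3 counts throughout, summed to between 60.4 and 64.9 CPM, 59.6 and 60.4 CPM, 63.9 and 64.8 CPM, and 41.2 and 42.4 CPM in the same order. Both sums were thus lower in *Arid1a* KO JSH-23 than in *Arid1a* KO vehicle, as were *Bcl2l11* and *Bmf*, but not all of their markers fell. In that comparison *Col1a1*, *Col1a2* and *Dcn* had log2 fold changes of 0.24, -0.48 and 0.16 and were not called (adjusted p between 0.344 and 0.806). Among the leukocyte markers, *Cd74* fell (-0.95, adjusted p = 0.0413). *Lyz2* (-0.13) and *Csf1r* (-0.67) were not called, nor were *Itgam* and *Adgre1*, which had at most 2 counts in *Arid1a* KO. Most of the fibroblast sum was *Pdgfra*, named after its values were seen, which fell by 0.67 on the log2 scale with JSH-23 in *Arid1a* KO (adjusted p = 1.83e-17, interaction -0.58), whereas the fibroblast markers *Lum* and *Thy1* had at most 2 counts. Most of the leukocyte sum in *Arid1a* KO was *Cd68*, also named after its values were seen. *Cd68* was higher in *Arid1a* KO with vehicle (log2 fold change 1.32, adjusted p = 4.95e-15) and fell with JSH-23 in *Arid1a* KO (-1.11, adjusted p = 1.73e-13). With vehicle, *Itgam*, *Adgre1*, *Csf1r* and *Lyz2* were lower in *Arid1a* KO (-6.77, -7.29, -2.65 and -1.59), so the near-equal vehicle sums held opposite differences. *Itgam* (10 and 15 counts in WT vehicle) and *Adgre1* (17 and 19) had 0 counts in *Arid1a* KO vehicle. The size of their log2 fold changes is therefore not measured. *Ly6g* was at 0 in every sample, and *Cd3e* had at most 2 counts. The part of these markers in the results was not tested.

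**Figure D2:**
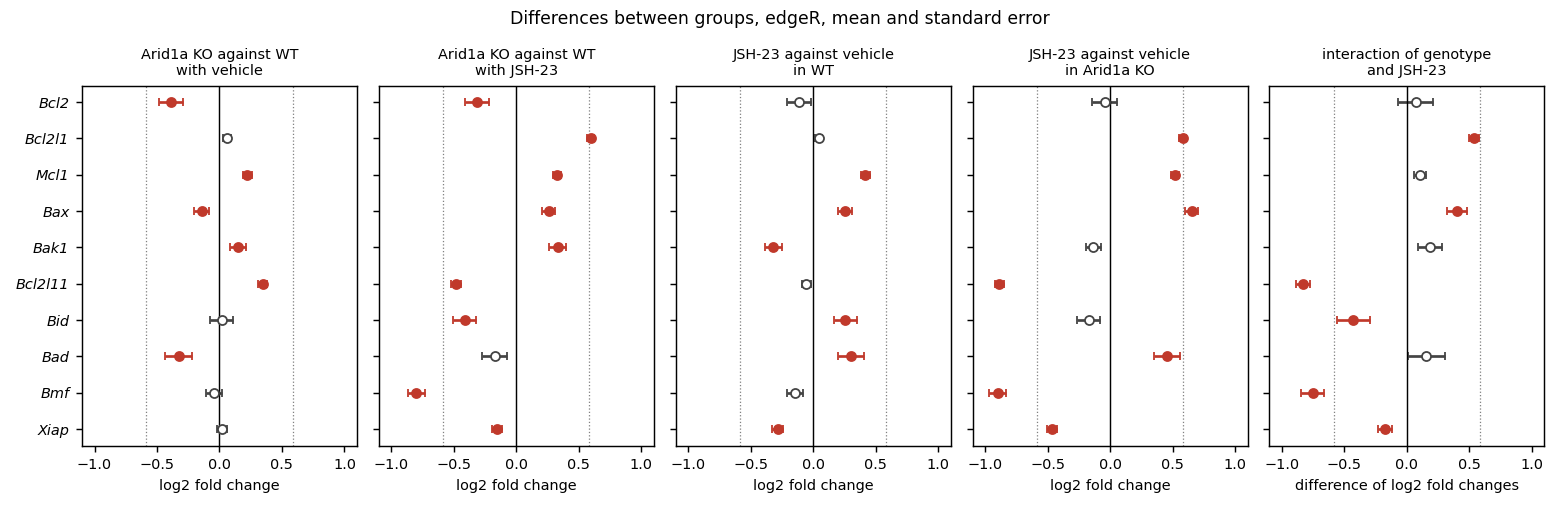
Log2 fold changes of the 10 genes in the 4 pairwise comparisons and the difference of log2 fold changes in the interaction, from edgeR; bars are standard errors, filled red points have an adjusted p under 0.05, and dotted lines mark 1.5-fold. The widest spread among the genes is seen for JSH-23 against vehicle in *Arid1a* KO, from -0.90 for *Bmf* to 0.65 for *Bax*.

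*Bcl2l11* encodes BIM, a BH3-only protein that binds all guardians of the family, and lies on chromosome 2 (128126038 to 128162547, plus strand, mm10). Its levels were 113 and 118 CPM in WT vehicle, 109 and 112 CPM in WT JSH-23, 145 and 148 CPM in *Arid1a* KO vehicle and 81.2 and 77.3 CPM in *Arid1a* KO JSH-23. The *Arid1a* KO vehicle samples were the highest and the *Arid1a* KO JSH-23 samples the lowest of the 8, without overlap with WT. Hence the sign of the difference between genotypes was opposite in the 2 treatments: *Bcl2l11* was 27.1% higher in *Arid1a* KO with vehicle (log2 fold change 0.35, SE 0.036, adjusted p = 4.75e-13) and 1.40-fold lower with JSH-23 (-0.48, SE 0.040, adjusted p = 4.47e-17). JSH-23 was accompanied by a 1.85-fold fall in *Arid1a* KO (-0.89, SE 0.038, adjusted p = 2.18e-32). In WT the log2 fold change was -0.05 (95% interval from -0.13 to 0.02, adjusted p = 0.234), and the difference between the genotypes in the response was -0.83 (SE 0.054, adjusted p = 1.19e-21).

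*Bmf*, a BH3-only gene whose product is held at the cytoskeleton in unstressed cells, lies on the same chromosome (118528757 to 118549686, minus strand). It was measured at 44.2 and 46.6 CPM in WT vehicle, 39.98 and 42.4 CPM in WT JSH-23, 43.4 and 44.7 CPM in *Arid1a* KO vehicle and 24.1 and 23.3 CPM in *Arid1a* KO JSH-23. The *Arid1a* KO JSH-23 pair stood apart below the other 6 samples, while the *Arid1a* KO vehicle and WT vehicle pairs overlapped. JSH-23 was accompanied by a 1.86-fold fall in *Arid1a* KO (log2 fold change -0.90, SE 0.068, adjusted p = 2.79e-19). In WT, the difference was -0.14 (SE 0.064) and did not pass the test (adjusted p = 0.0502), though it did in 5 of the alternatives tried (adjusted p between 0.0259 and 0.0457). The interaction was -0.75 (SE 0.093, adjusted p = 3.50e-10), and with JSH-23 *Bmf* was 1.74-fold lower in *Arid1a* KO than in WT (-0.80, SE 0.070, adjusted p = 5.16e-16).

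The remaining BH3-only genes moved less. *Bid*, which links death receptors to mitochondria when cut by caspase 8, had 17.2 and 17.5 CPM in WT vehicle, 21.7 and 19.8 CPM in WT JSH-23, 17.8 and 17.3 CPM in *Arid1a* KO vehicle and 15.3 and 15.8 CPM in *Arid1a* KO JSH-23. The WT JSH-23 samples were highest and the *Arid1a* KO JSH-23 samples lowest, and *Bid* was 1.33-fold lower in *Arid1a* KO than in WT with JSH-23 (log2 fold change -0.41, SE 0.093, adjusted p = 0.000141). The rise with JSH-23 in WT (0.26, SE 0.094, adjusted p = 0.0158) was lost without the first WT vehicle sample (adjusted p = 0.0716), without the first WT JSH-23 sample (adjusted p = 0.173) and in DESeq2 (adjusted p = 0.0992). The interaction of *Bid* (-0.43, SE 0.13, adjusted p = 0.0067) was likewise lost without the first WT JSH-23 sample (adjusted p = 0.0565) and in DESeq2 (adjusted p = 0.0676).

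*Bad*, whose product is inactivated by growth factor signalling through phosphorylation, went the other way from *Bcl2l11* and *Bmf* in *Arid1a* KO tumors. Its levels were 13.2 and 14.5 CPM in WT vehicle, 16.5 and 17.6 CPM in WT JSH-23, 10.99 and 11.09 CPM in *Arid1a* KO vehicle and 14.0 and 16.2 CPM in *Arid1a* KO JSH-23. Within each genotype the JSH-23 samples lay above the vehicle samples, with a log2 fold change of 0.46 (SE 0.11, adjusted p = 0.000129) in *Arid1a* KO. In WT the rise was 0.30 (SE 0.10, adjusted p = 0.0118), and this call was lost without the first WT vehicle sample (adjusted p = 0.122), without the second WT JSH-23 sample (adjusted p = 0.0820) and in DESeq2 (adjusted p = 0.0893). With vehicle, *Bad* was 1.25-fold lower in *Arid1a* KO (-0.33, SE 0.11, adjusted p = 0.0104), which was lost without the second WT vehicle sample (adjusted p = 0.125) and in DESeq2 (adjusted p = 0.0762). The response to JSH-23 was not shown to differ between genotypes (difference 0.16, 95% interval from -0.14 to 0.45). The rise in *Arid1a* KO was 0.20 in limma on log2(TPM + 1) (adjusted p = 0.0501).

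Among the guardians, *Bcl2l1* (chromosome 2, 152758732 to 152833803, minus strand) rose with JSH-23 in *Arid1a* KO tumors. Its levels were 174 and 178 CPM in WT vehicle, 183 and 179 CPM in WT JSH-23, 189 and 178 CPM in *Arid1a* KO vehicle and 273 and 275 CPM in *Arid1a* KO JSH-23. The first 3 groups lay close together and the *Arid1a* KO JSH-23 pair stood above them. JSH-23 was accompanied by a rise of 49.5% in *Arid1a* KO (log2 fold change 0.58, SE 0.028, adjusted p = 2.87e-29), just short of the 1.5-fold mark, against 0.04 in WT (95% interval from -0.02 to 0.10, adjusted p = 0.247). The interaction was 0.54 (SE 0.042, adjusted p = 6.76e-18), and with JSH-23 *Bcl2l1* was 1.51-fold higher in *Arid1a* KO than in WT (0.60, SE 0.029, adjusted p = 7.18e-29). With vehicle the difference between genotypes was 0.06 (adjusted p = 0.101). It passed the test without scaling beyond library size (0.09, adjusted p = 0.0144) and with a filter of 10 counts per sample (0.07, adjusted p = 0.0372). Without the second *Arid1a* KO vehicle sample the difference was 0.10. In limma on log2(TPM + 1), a scale on which the median of all genes shifted by -0.20 with JSH-23 in *Arid1a* KO and by -0.17 for the interaction, the rise of *Bcl2l1* in *Arid1a* KO was 0.34 (adjusted p = 0.00012) and the interaction 0.33 (adjusted p = 0.00213).

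*Mcl1*, whose short-lived product is a guardian that cells must keep making, rose in all 4 pairwise comparisons. It was at 137 and 125 CPM in WT vehicle, 170 and 180 CPM in WT JSH-23, 151 and 155 CPM in *Arid1a* KO vehicle and 223 and 215 CPM in *Arid1a* KO JSH-23. The 4 groups did not overlap. JSH-23 was accompanied by a 1.33-fold rise in WT (log2 fold change 0.42, SE 0.035, adjusted p = 1.20e-16) and a 1.43-fold rise in *Arid1a* KO (0.52, SE 0.032, adjusted p = 1.09e-23). *Arid1a* KO was higher than WT by 16.6% with vehicle (adjusted p = 1.82e-07) and by 25.4% with JSH-23 (adjusted p = 4.16e-14). The interaction of 0.10 (SE 0.048) missed the threshold (adjusted p = 0.0757), but passed it when the second sample of WT vehicle, WT JSH-23 or *Arid1a* KO JSH-23 was left out (adjusted p = 0.00586, 0.0244 and 0.0194). Its sign was not stable: it was 0.00 without scaling beyond library size (adjusted p = 0.991) and -0.09 on log2(TPM + 1) (adjusted p = 0.330). On the latter scale the rise of *Mcl1* with JSH-23 in *Arid1a* KO was 0.28 (adjusted p = 0.00145) and its difference between genotypes with JSH-23 was 0.13 (adjusted p = 0.0520).

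*Bcl2*, the founding member, with the lowest TPM of the set, was lower in *Arid1a* KO than in WT with either treatment. Its levels were 18.9 and 18.6 CPM in WT vehicle, 17.1 and 17.6 CPM in WT JSH-23, 13.5 and 15.1 CPM in *Arid1a* KO vehicle and 13.7 and 14.1 CPM in *Arid1a* KO JSH-23. All 4 *Arid1a* KO samples lay below all 4 WT samples. *Bcl2* was 1.31-fold lower in *Arid1a* KO with vehicle (log2 fold change -0.39, SE 0.097, adjusted p = 0.000589) and 1.24-fold lower with JSH-23 (-0.31, SE 0.099, adjusted p = 0.00615). The latter call was lost in DESeq2 (adjusted p = 0.0617). For JSH-23 against vehicle the differences were -0.11 in WT (adjusted p = 0.326) and -0.04 in *Arid1a* KO (adjusted p = 0.721). The difference in *Arid1a* KO depended on the scale: it was called on log2(TPM + 1) (-0.23, adjusted p = 0.0396) and on log2(TPM + 0.1) (-0.27, adjusted p = 0.0435), and was 0.06 with the trend of gene length removed (adjusted p = 0.612).

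The 2 pore formers differed in their response to JSH-23. *Bax* was measured at 51.4 and 49.1 CPM in WT vehicle, 59.4 and 60.2 CPM in WT JSH-23, 44.4 and 46.4 CPM in *Arid1a* KO vehicle and 69.2 and 73.5 CPM in *Arid1a* KO JSH-23. The lowest and the highest pair were thus both *Arid1a* KO. JSH-23 was accompanied by a 1.57-fold rise in *Arid1a* KO (log2 fold change 0.65, SE 0.052, adjusted p = 3.99e-18) and a 19.0% rise in WT (0.25, SE 0.055, adjusted p = 8.25e-05), and the difference between them was 0.40 (SE 0.076, adjusted p = 1.27e-05). With limma on log2(TPM + 1), the rise of *Bax* in *Arid1a* KO was 0.41 (adjusted p = 3.84e-05), the interaction 0.20 (adjusted p = 0.0167) and the difference between genotypes with JSH-23 0.06 (adjusted p = 0.177), against 0.26 (adjusted p = 1.68e-05) in the count model. With vehicle, *Bax* was lower in *Arid1a* KO (log2 fold change -0.14, adjusted p = 0.0302), a call that was lost without the first WT vehicle sample (adjusted p = 0.203), without the first *Arid1a* KO vehicle sample (adjusted p = 0.180) and in DESeq2 (adjusted p = 0.124).

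*Bak1* had 42.1 and 43.4 CPM in WT vehicle, 32.2 and 36.5 CPM in WT JSH-23, 48.9 and 45.9 CPM in *Arid1a* KO vehicle and 40.5 and 45.5 CPM in *Arid1a* KO JSH-23. The WT JSH-23 samples were the lowest of the 8. *Bak1* fell by 19.8% with JSH-23 in WT (log2 fold change -0.32, SE 0.069, adjusted p = 6.43e-05) and, with JSH-23, was 25.8% higher in *Arid1a* KO than in WT (0.33, SE 0.067, adjusted p = 2.79e-05). In *Arid1a* KO the difference with JSH-23 was -0.13 (adjusted p = 0.0503), which passed the test without the second *Arid1a* KO vehicle sample (adjusted p = 0.0452) or the second *Arid1a* KO JSH-23 sample (adjusted p = 0.0204). The interaction (0.18, adjusted p = 0.112) passed it without the second WT JSH-23 sample (adjusted p = 0.0311) or the first *Arid1a* KO JSH-23 sample (adjusted p = 0.0247), but was -0.02 on log2(TPM + 1) (adjusted p = 0.892). On that scale *Bak1* fell with JSH-23 in *Arid1a* KO (-0.37, adjusted p = 0.00241) and was not called between genotypes with JSH-23 (0.13, adjusted p = 0.164). The rise with vehicle in *Arid1a* KO (0.15, adjusted p = 0.0490) was lost without either WT vehicle sample, the first *Arid1a* KO vehicle sample or either *Arid1a* KO JSH-23 sample (adjusted p between 0.0525 and 0.310) and in DESeq2 (adjusted p = 0.219).

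*Xiap*, on chromosome X (42059613 to 42109664, plus strand), was lower with JSH-23 in both genotypes. It was at 107 and 104 CPM in WT vehicle, 86.1 and 87.3 CPM in WT JSH-23, 108 and 107 CPM in *Arid1a* KO vehicle and 77.7 and 77.9 CPM in *Arid1a* KO JSH-23. The vehicle samples of the 2 genotypes overlapped and all 4 JSH-23 samples lay below them. *Xiap* fell by 17.9% in WT (log2 fold change -0.28, SE 0.041, adjusted p = 1.21e-08) and by 27.5% in *Arid1a* KO (-0.46, SE 0.040, adjusted p = 8.87e-17). The interaction was -0.18 (SE 0.057, adjusted p = 0.00943), and this call was lost without the second WT vehicle sample (adjusted p = 0.0716) and in DESeq2 (adjusted p = 0.0897). With JSH-23, *Xiap* was 1.11-fold lower in *Arid1a* KO than in WT (log2 fold change -0.16, adjusted p = 0.00147). That difference was -0.31 on log2(TPM + 1) (adjusted p = 0.00367) and the interaction -0.34 (adjusted p = 0.0167).

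The length of a gene moved with these results. In the 2 pairwise comparisons and the interaction that involve the *Arid1a* KO JSH-23 samples, genes under 1000 bp had median log2 fold changes of 0.23 (*Arid1a* KO against WT with JSH-23), 0.24 (JSH-23 in *Arid1a* KO) and 0.21 (interaction), and genes over 10000 bp had -0.13, -0.13 and -0.11. For *Arid1a* KO against WT with vehicle the corresponding medians were 0.00 and -0.04, and for JSH-23 in WT 0.02 and 0.00. *Bax*, which rose in *Arid1a* KO with JSH-23, is the shortest of the 10 genes and *Xiap* (22194 bp) and *Bcl2l11* (11212 bp), which fell, the longest. When the trend with gene length was removed within each sample, an alternative chosen after seeing the data, the interaction of *Xiap* became -0.08 (adjusted p = 0.302) and its difference between genotypes with JSH-23 became 0.00 (adjusted p = 0.983). In that comparison the difference of *Bax* became 0.08 (adjusted p = 0.177) and the fall of *Bcl2* was lost (adjusted p = 0.0736), whereas *Bad* was called lower (-0.27, adjusted p = 0.0239). *Bad* was also called lower there without scaling beyond library size (-0.25, adjusted p = 0.0328), on log2(TPM + 1) (-0.36, adjusted p = 0.00615) and on log2(TPM + 0.1) (-0.37, adjusted p = 0.00575). For JSH-23 in *Arid1a* KO, *Bcl2l11* (-0.78, adjusted p = 2.43e-29), *Bmf* (-0.82, adjusted p = 2.01e-17), *Bcl2l1* (0.68, adjusted p = 4.16e-33), *Bax* (0.49, adjusted p = 4.80e-13), *Mcl1* (0.60, adjusted p = 6.74e-27) and *Xiap* (-0.38, adjusted p = 3.39e-13) kept their calls. *Bak1* was newly called lower in that comparison (-0.17, adjusted p = 0.0109). The interaction of *Mcl1* then passed the test (0.18, adjusted p = 0.00146), and that of *Bax* moved by more than 1.5 times to 0.24 (adjusted p = 0.0079). The cause of the trend was not tested.

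**Figure D3:**
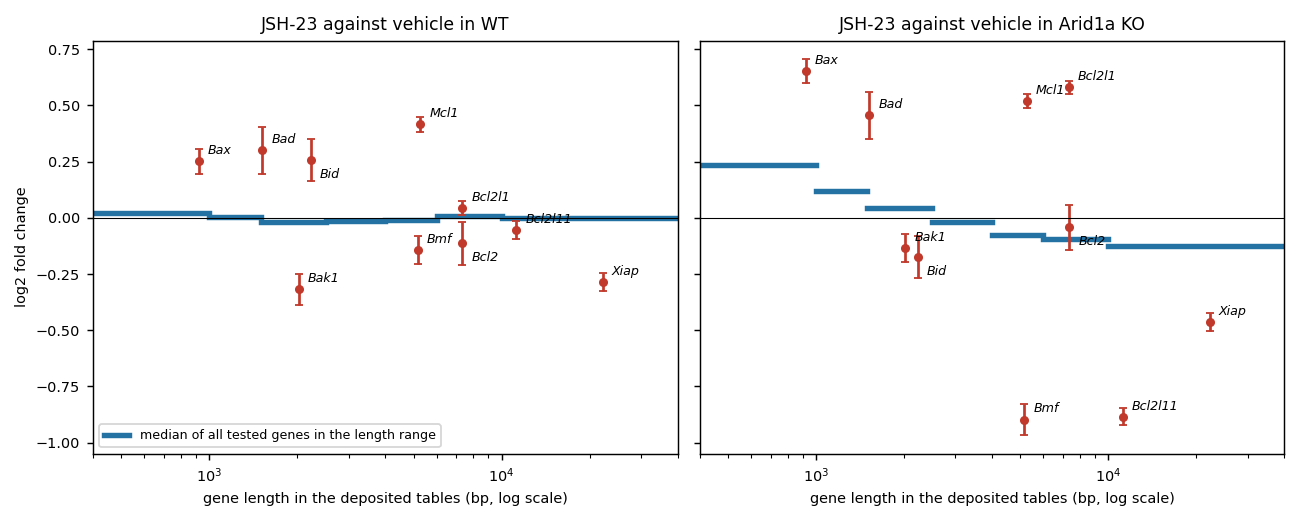
Log2 fold change against gene length (log axis) for JSH-23 against vehicle in WT (left) and in *Arid1a* KO (right); red points are the 10 genes with their standard errors and blue bars are the medians of all tested genes in 7 ranges of length. The medians stay near 0 in WT, from -0.02 to 0.02, and go from 0.24 for the shortest to -0.13 for the longest genes in *Arid1a* KO.

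Summed by role in TPM, the 4 BH3-only genes gave 88.1 and 93.3 in WT vehicle, 93.5 and 94.7 in WT JSH-23, 92.5 and 93.5 in *Arid1a* KO vehicle, and 60.4 and 62.3 in *Arid1a* KO JSH-23. The last pair thus lay below all others, while the 3 other groups covered one narrow range. The 3 guardians summed to 132 and 128 TPM in WT vehicle, 146 and 149 TPM in WT JSH-23, 143 and 141 TPM in *Arid1a* KO vehicle and 176 and 172 TPM in *Arid1a* KO JSH-23, in which they were highest. *Bax* and *Bak1* together gave 193 and 188 TPM in WT vehicle, 197 and 204 TPM in WT JSH-23, 183 and 185 TPM in *Arid1a* KO vehicle and 205 and 219 TPM in *Arid1a* KO JSH-23. TPM moved the scale itself: on log2(TPM + 1) the median of all tested genes for JSH-23 in *Arid1a* KO was -0.20, against -0.02 in the count model. Relative to this shift the fall of the BH3-only sum is smaller and the rise of the guardian sum larger than the TPM values show. These are levels of RNA, and no protein or cell death was measured in these data.

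**Figure D4:**
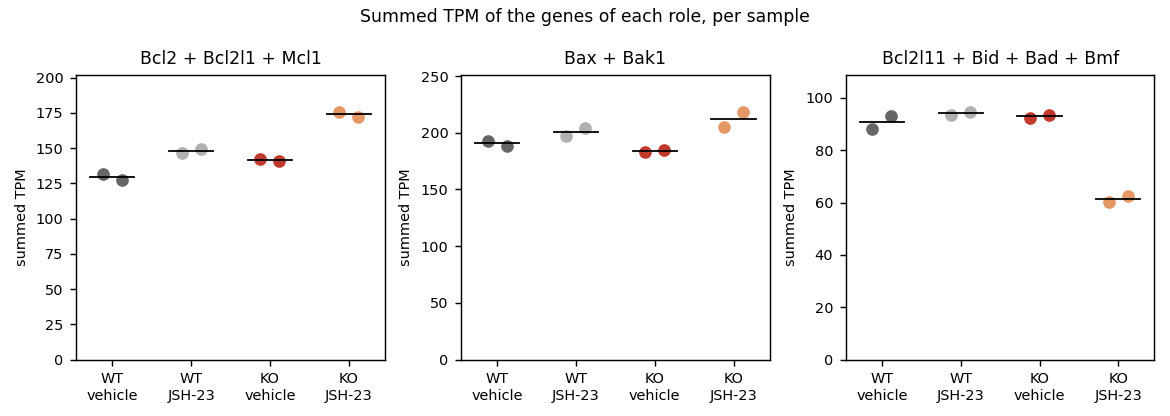
Summed TPM of the genes of each role in each sample, on linear axes from 0; points are samples and black lines group means. The BH3-only sum is between 60.4 and 62.3 TPM in *Arid1a* KO JSH-23 and at least 88.1 TPM in the other samples.

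*Bmf*, *Bcl2l11* and *Mcl1* had the widest ranges of group means among the 10 genes, 0.94, 0.88 and 0.74 on the log2 CPM scale, which is wider than 74.5%, 72.0% and 64.5% of all tested genes. The genes whose log2 CPM followed them most closely over the 8 samples, among 9193 others with at least 10 CPM, were *Lbp* (Pearson r = 0.996) and *Kmt2a* (0.993) for *Bmf*, *Pacs2* (0.994) and *Tapbp* (0.990) for *Bcl2l11*, and *Sh3gl1* (0.996) and *Dhx40* (0.991) for *Mcl1*. All these values come from the same 8 libraries in 4 groups, so r describes the order of the groups more than independent points. *Lbp*, for example, had between 135 and 141 CPM in the first 6 samples and 98.0 and 99.1 CPM in *Arid1a* KO JSH-23.

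The wider apoptosis machinery was read from a list of 51 further genes, of which 43 passed the filter. With vehicle, 15 were higher and 13 lower in *Arid1a* KO, and with JSH-23, 12 were higher and 7 lower. JSH-23 was accompanied by a rise of 15 and a fall of 18 genes in WT, and by a rise of 12 and a fall of 11 in *Arid1a* KO. The interaction was positive for 11 and negative for 3. These splits depended on the scaling. On log2(TPM + 1) they were 7 higher and 16 lower between the genotypes under JSH-23, 8 and 22 for JSH-23 in *Arid1a* KO and 6 and 16 for the interaction. Without scaling beyond library size, JSH-23 in *Arid1a* KO gave 10 and 20, the interaction 8 and 10, and the comparison with vehicle was 18 and 10, while with the length trend removed *Arid1a* KO against WT with JSH-23 was 14 and 4. The medians over the 43 genes lay between -0.07 (JSH-23 in WT) and 0.06 (*Arid1a* KO against WT with JSH-23), beside medians between -0.02 and 0.00 over all tested genes. In the 5 comparisons, 65.1%, 44.2%, 76.7%, 53.5% and 32.6% of the 43 genes were called, beside 50.5%, 47%, 55.8%, 67.8% and 38.4% of all tested genes. Past 1.5-fold were 3, 3, 4, 4 and 3 of the 43, where 12.6%, 8.71%, 15.8%, 26% and 9.07% of all genes were.

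By role, the changes of the wider list were mixed, and each group holds too few genes for its count to be set apart from the share of all genes, which ranged from 23.2% to 34.4% per direction over the 4 pairwise comparisons. Of 7 tested death receptor genes, 4 were lower and none higher in *Arid1a* KO with vehicle, and 3 lower and none higher with JSH-23, where 25.5% and 23.8% of all genes were lower. On log2(TPM + 1) these were 4 and 4 lower and again none higher. Of 7 apoptosome and caspase genes, 4 were higher and 2 lower in *Arid1a* KO with vehicle, and 4 rose and 2 fell with JSH-23 in WT, against 1 in each direction in *Arid1a* KO. On log2(TPM + 1), 2 rose and 3 fell in WT and 4 fell in *Arid1a* KO. All 3 mitochondrial channel genes (*Vdac1*, *Vdac2* and *Vdac3*) were higher in *Arid1a* KO than in WT with JSH-23, of which 1 passed the test on log2(TPM + 1). Of the 6 tested genes of the family of inhibitors of apoptosis, to which *Xiap* belongs, 2 rose with JSH-23 in *Arid1a* KO and none fell, but 1 rose and 2 fell on log2(TPM + 1).

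Of these 43 genes, 8 were called with a 1.5-fold difference in at least 1 pairwise comparison at a mean of at least 1 CPM. *Htra2*, which encodes a mitochondrial protease that binds XIAP once released, had 48.5 and 46.1 CPM in WT vehicle, 57.9 and 57.0 CPM in WT JSH-23, 28.2 and 25.2 CPM in *Arid1a* KO vehicle and 55.1 and 53.1 CPM in *Arid1a* KO JSH-23. The *Arid1a* KO vehicle pair stood below the rest. *Htra2* was 1.78-fold lower in *Arid1a* KO with vehicle (log2 fold change -0.83, SE 0.066, adjusted p = 8.86e-18) and 2.03-fold higher with JSH-23 than with vehicle in *Arid1a* KO (1.02, SE 0.063, adjusted p = 1.71e-23), with an interaction of 0.74 (SE 0.087, adjusted p = 6.16e-11).

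*Xaf1*, an antagonist of XIAP that is induced by interferon, went the opposite way from *Htra2* at low counts. It had 17 and 29 counts in WT vehicle, 13 and 10 in WT JSH-23, 75 and 77 in *Arid1a* KO vehicle and 11 and 9 in *Arid1a* KO JSH-23. The rise in *Arid1a* KO with vehicle was 2.88-fold (log2 fold change 1.53, SE 0.30, adjusted p = 1.24e-05) and the fall with JSH-23 in *Arid1a* KO was 7.63-fold (-2.93, SE 0.35, adjusted p = 2.04e-11). The fall with JSH-23 in WT (-1.01, adjusted p = 0.0313) was lost without the second WT vehicle sample (adjusted p = 0.385), without either WT JSH-23 sample (adjusted p = 0.0698 and 0.139) and in DESeq2 (adjusted p = 0.0961). The log2(TPM + 1) scale, which compresses low levels, gave *Xaf1* 0.76 in *Arid1a* KO with vehicle (adjusted p = 0.00114), -1.16 with JSH-23 in *Arid1a* KO (adjusted p = 6.69e-05) and -0.30 with JSH-23 in WT (adjusted p = 0.0594).

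*Cycs*, the gene of cytochrome c, which has many processed copies among which reads can be split, was 1.79-fold higher in *Arid1a* KO with vehicle (adjusted p = 8.13e-13) and 1.59-fold higher with JSH-23 (adjusted p = 3.40e-10). *Birc5*, which encodes the mitotic protein survivin, was 1.53-fold higher in *Arid1a* KO with JSH-23 (adjusted p = 1.10e-19). *Tnfrsf1a*, the receptor of TNF, rose 1.63-fold with JSH-23 in *Arid1a* KO (adjusted p = 1.22e-25). In WT, JSH-23 was accompanied by a 1.58-fold fall of *Fadd* (adjusted p = 3.43e-05), an adaptor of death receptors, and a 1.52-fold rise of *Naip2* (adjusted p = 5.46e-05), a gene with near-identical neighbours whose reads may be split. *Dffb*, the nuclease that cuts DNA in apoptosis, fell 1.71-fold in WT (adjusted p = 0.00157) and 1.58-fold in *Arid1a* KO (adjusted p = 0.00654). These calls of *Dffb* were lost without the first WT JSH-23 sample (adjusted p = 0.0567) and without the first *Arid1a* KO JSH-23 sample (adjusted p = 0.171), respectively, and the latter also in DESeq2 (adjusted p = 0.0547). The rise of *Tnfrsf1a* was 0.46 on log2(TPM + 1) (adjusted p = 1.36e-05).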

How the data were processed

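RNA of sorted cells from Myc-CaP tumors was sequenced in 8 samples, 2 in each of 4 groups taken from the sample labels. Per the paper's methods, the authors used TopHat2 on GRCm38/mm10, with 1 best match kept for a read, and the deposited counts per gene were made by strand with HTSeq-count, whereas the submitters' processing notes name HISAT2, HTSeq and DESeq2. The deposited TPM values divide each count by a gene length and scale the result within a sample. A series table that repeats the TPM values was not used.

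Counts were filtered with filterByExpr, which left 13921 of 39089 genes, scaled by TMM (factors from 0.949 to 1.03) and fitted with a mean per group in edgeR 4.0.16 (quasi-likelihood test, R 4.3.3, Benjamini-Hochberg adjustment). SEs are the log2 fold change divided by the root of the F statistic. The counts of the 2 samples of a group differed by more than sampling noise (chi-square per degree of freedom from 1.46 to 1.57). On simulated data, the test recovered 168 of 197 genes changed 2-fold for JSH-23 in *Arid1a* KO (85.3%), with 9 false calls among 13616 genes. The simulation took its spread from these same samples and held no trend with gene length. It therefore cannot show how many calls would be false under a larger spread between tumors.

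The members and gene lists were chosen with earlier results of these data known. Named beyond the members are *Arid1a*, markers at or near 0 or defining the sort, listed apoptosis genes called with 1.5-fold in a pairwise comparison at 1 CPM or more, and, for the 3 members of widest range, the 2 genes of highest r. Some further markers were named after their values were seen. Alternatives were DESeq2 1.42.0, a block for replicate number, limma 3.58.1 with log2(TPM + 1) and with log2(TPM + 0.1), library size as the sole scaling, no filter on low counts or a filter of 10 counts per sample, only the groups compared, coefficients of variation of 0.1 and 0.2, and leaving out each sample. The set coefficients of variation were used with edgeR's likelihood ratio test in place of the quasi-likelihood test. Corrections for gene length, and for length and GC content (12718 tested genes with a value, 91.4%, all 10 members included), were chosen after seeing the data.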

Additional observations from a re-analysis of the deposited data

Results flagged for a closer look

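For 6 of the 10 genes the 2 genotypes responded unequally to JSH-23 in the interaction test of the edgeR model, given here as the log2 fold change in *Arid1a* KO minus that in WT, with adjusted p-values over all 13921 genes. The interaction was called for 38.4% of all tested genes. The response was higher in *Arid1a* KO for *Bcl2l1* (0.54, adjusted p = 6.76e-18) and *Bax* (0.40, adjusted p = 1.27e-05). It was lower in *Arid1a* KO for *Bcl2l11* (-0.83, adjusted p = 1.19e-21), *Bmf* (-0.75, adjusted p = 3.50e-10), *Bid* (-0.43, adjusted p = 0.0067) and *Xiap* (-0.18, adjusted p = 0.00943). With the trend of gene length removed, *Xiap* no longer passed the test (-0.08, adjusted p = 0.302).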

How the results depend on the processing

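Over 20 alternative settings, 864 of the 990 alternative log2 fold changes of the 10 genes stayed on the same side of the threshold, 92 no longer passed it (53 of them with a coefficient of variation of 0.1 or 0.2), 34 newly passed it and 0 changed direction for a called gene. Taking first the genotypes compared under vehicle and under JSH-23, then JSH-23 in WT and in *Arid1a* KO, then the interaction, the number of the 10 genes called was 6, 9, 6, 7 and 6, and leaving out 1 sample at a time it ranged from 4 to 7, 9 to 9, 4 to 6, 7 to 8 and 5 to 8. With a coefficient of variation of 0.1 it was 0, 3, 1, 7 and 2, with 0.2 it was 0, 0, 0, 2 and 0, and in DESeq2 it was 3, 8, 4, 7 and 4. Of all tested genes, 50.5%, 47%, 55.8%, 67.8% and 38.4% were called in the main fit, in the same order. A coefficient of variation of 0.1 left 20.6%, 13.6%, 26.1%, 43.2% and 5.37% of all genes called, and 0.2 left 4.41%, 1.85%, 5.81%, 15.4% and 0.338%. In DESeq2 these shares were 37.5%, 33.8%, 43%, 56.5% and 25.8%. Of the 43 other apoptosis genes, 28, 19, 33, 23 and 14 were called, with a coefficient of variation of 0.1 they were 7, 4, 8, 13 and 3, with 0.2 they were 1, 0, 0, 2 and 0, and with limma on log2(TPM + 1) or log2(TPM + 0.1) the interaction was called for 22 and 22. On these 2 TPM scales the interaction was called for 40.1% and 39.2% of all genes. The coefficients of variation set a larger spread and came with a likelihood ratio test, and the parts of spread and test in the fewer calls were not separated. The cause of the other shifts was not tested.

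Replicate numbers did not mark paired samples: the deviations of same-numbered samples correlated between -0.096 and 0.040. With the replicate block, 6, 9, 6, 8 and 6 of the 10 genes were called, beside 50.7%, 47.1%, 56%, 67.9% and 39.1% of all genes. *Bak1* was then called for JSH-23 in *Arid1a* KO (adjusted p = 0.0414).

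Removing scaling beyond library size moved the median of all genes for JSH-23 in *Arid1a* KO from -0.02 to -0.13, and log2(TPM + 0.1) moved it to -0.25; *Bak1* and *Bid* then fell with JSH-23 in *Arid1a* KO (adjusted p = 0.000323 and 0.00572 without scaling). On log2(TPM + 1), *Mcl1*, *Bax* and *Bak1* were not called between genotypes under JSH-23 (adjusted p = 0.0520, 0.177 and 0.164). With length and GC trends removed, *Xiap* lost its call in that comparison (adjusted p = 0.686) and in the interaction (adjusted p = 0.245). Under the same correction, *Bak1* (-0.15, adjusted p = 0.0262) and *Bid* (-0.21, adjusted p = 0.0430) were newly called lower for JSH-23 in *Arid1a* KO. Only *Bcl2l11* and *Bmf* kept their interaction with a coefficient of variation of 0.1, where 5.37% of all genes were called.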
